A study of Rattus norvegicus with 115 samples.

Results

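The genes described here mark CD8 T cells and the killing program that these cells share with natural killer (NK) cells. They were chosen by symbol, as the rows of the deposited count table named Cd8a, Cd8b, Gzmb, Gzmk, Prf1, Nkg7, Klrk1, Ifng and Eomes. Of these 9 genes 8 had a row among the 17455 gene symbols of the table, and Eomes had none and is not analysed here. All 8 passed the filter on low counts that left 11932 genes for testing.

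Cd8a and Cd8b encode the 2 chains of the CD8 coreceptor, which binds MHC class I beside the T cell receptor. Killing runs through granules that hold perforin, a protein that opens pores in the target membrane, and granzymes, proteases that enter through those pores and start cell death. Activated CD8 T cells and NK cells also secrete interferon-gamma, and TGF-beta is known to restrain both the granule genes and interferon-gamma.

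Virgin Sprague Dawley rats had been given N-nitroso-N-methylurea (NMU), a carcinogen that induces mammary tumours, at 50 mg/kg in 1 to 3 intraperitoneal injections between the ages of 35 and 53 days. Once a tumour could be felt, a rat received vehicle, LY2157299 (galunisertib, which blocks the kinase of TGFBR1, a receptor of TGF-beta), an anti-PD-L1 antibody, or both agents together. PD-L1 is the ligand of the T cell checkpoint PD-1. Doses were not given in the sources used here, and a separate cohort of tumour-bearing rats went untreated. All groups therefore carry the same carcinogen. Dissociated tumours were sorted into CD45, Ep and DN fractions, and RNA-seq libraries were amplified from less than 10 ng of RNA.

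Columns of the count table are headed by rat and tumour, and the sorted fraction is not part of the header. Leukocyte libraries were therefore taken as the columns with at least 300 CPM of Ptprc, which encodes CD45, where CPM (the usual unit of sequencing depth) is a gene's count scaled by the total of its column. This held for 44 columns, at 486 to 2049 CPM, and the other 63 reached at most 165 CPM. The 44 columns were 12 of 8 vehicle rats, 7 of 5 rats on the TGFBR1 inhibitor, 8 of 5 rats on anti-PD-L1, 8 of 6 rats on the combination and 9 of 7 untreated rats. Total counts were 6609198 to 29727437 per leukocyte column, so that 3 counts correspond to 0.101 to 0.454 CPM (counting error only). Just inside the threshold lay tumour 3 of vehicle rat P5 at 486 CPM, tumour 1 of untreated rat C2 at 498 CPM and tumour 2 of vehicle rat P6 at 525.8 CPM. Just outside it lay tumour 1 of untreated rat C5 at 165 CPM. The columns of P5 tumour 3 and P6 tumour 2 held little T cell RNA, with 21.7 and 25.8 CPM of the T cell gene Cd3e, and much of the macrophage gene Cd68, with 1354 and 1048 CPM. Results are therefore also given at 600 CPM of Ptprc, which leaves both out. The 3 CD3 genes were detected in all 24 rats of the 4 treatment arms, with a summed level of 613 to 3249 CPM. These are bulk libraries, in which fewer cells of a type and less RNA per cell cannot be told apart.

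The set of RefSeq start sites used here, in assembly GRCr8, held 8 of the 9 genes, all but Cd8b. The 250 bases before the start are printed for 3 genes that varied together over the rats, as shown further on, and for Gzmk, the gene that varied most. Capitals mark TGTGGT or its complement ACCACA, the core recognised by RUNX factors, which include the CD8 lineage factor Runx3.
Cd8a promoter, chr4:104923866-104924115, plus strand: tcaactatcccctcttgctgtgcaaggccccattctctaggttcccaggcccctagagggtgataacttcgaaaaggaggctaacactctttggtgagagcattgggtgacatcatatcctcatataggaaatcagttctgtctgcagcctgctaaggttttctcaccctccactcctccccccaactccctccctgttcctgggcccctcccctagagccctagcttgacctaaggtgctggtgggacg
Prf1 promoter, chr20:29788790-29789039, plus strand: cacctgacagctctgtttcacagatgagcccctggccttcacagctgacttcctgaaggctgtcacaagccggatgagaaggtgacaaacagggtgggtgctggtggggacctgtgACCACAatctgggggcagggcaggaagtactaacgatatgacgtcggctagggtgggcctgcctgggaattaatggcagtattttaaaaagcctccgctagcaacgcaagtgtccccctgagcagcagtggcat
Klrk1 promoter, chr4:164778383-164778632, minus strand: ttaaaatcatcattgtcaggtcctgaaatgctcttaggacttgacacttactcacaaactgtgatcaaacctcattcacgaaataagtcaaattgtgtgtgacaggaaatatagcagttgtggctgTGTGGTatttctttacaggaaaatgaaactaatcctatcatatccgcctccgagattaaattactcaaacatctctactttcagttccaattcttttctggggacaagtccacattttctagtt
Gzmk promoter, chr2:46582016-46582265, minus strand: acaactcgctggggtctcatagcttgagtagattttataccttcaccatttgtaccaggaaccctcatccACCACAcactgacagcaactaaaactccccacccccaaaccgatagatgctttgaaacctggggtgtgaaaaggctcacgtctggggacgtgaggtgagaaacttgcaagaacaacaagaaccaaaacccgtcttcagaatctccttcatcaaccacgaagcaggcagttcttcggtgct

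The core lay 134 bases before the start in Prf1, 124 in Klrk1 and 180 in Gzmk, and these letters were not in the Cd8a window. It stood in 6 of the 8 member promoters (Prf1, Klrk1, Gzmk, Gzmb, Nkg7 and Eomes, but not Cd8a or Ifng), and 14.5% of 33469 rat promoters of the same length held it. Searched on both strands as well, TGTGGTT (which contains TGTGGT) stood in 2 member promoters and 4.59% of all, AGGTGT in 0 and 11.6%, GGTGTGA in 1 (Gzmk) and 3.22%, and AGGAAG in 2 (Nkg7 and Prf1) and 29.5%. The cores TGACGTCA, TGACGCA, 2 forms of the NF-kappaB motif and TTCCGGGAA were in none of the 8 windows, and in 1.59%, 1.66%, 0.0956%, 0.0687% and 0.344% of all promoters. AGGTGT and GGTGTGA overlap each other by the letters GGTGT. The 10 motifs were chosen with the expression values known, no test was made, and a match describes the sequence only.

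The first question is what each gene measured in the treated tumours against those of vehicle rats. None of the 8 genes passed the test for a change with any treatment. In edgeR's quasi-likelihood test over the 24 rats, 0 of 8 members passed an adjusted p of 0.05 against vehicle in the TGFBR1 inhibitor arm, where 0% of all 11932 genes passed. The same held for anti-PD-L1 (0 of 8 members, 0% of all genes) and for the combination (0 of 8 members, 0% of all genes). DESeq2 also called 0 of 8 members each time, but 3.47% of all genes with the inhibitor, 1.28% with anti-PD-L1 and 2.81% with the combination. Limma voom called 0 of 8 members each time, and 0%, 0.017% and 2.35% of all genes in the same order. At an unadjusted p under 0.05 stood 2 of 8 members with the inhibitor (17.1% of all genes), 0 with anti-PD-L1 (11.8%) and 0 with the combination (15.7%). For every member the values of each treated arm overlapped those of vehicle, as they did for nearly all genes: 0.67%, 0.469% and 0.26% of genes had arms that did not overlap vehicle with the inhibitor, anti-PD-L1 and the combination. The 3 comparisons share the 8 vehicle rats.

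**Figure D1:**
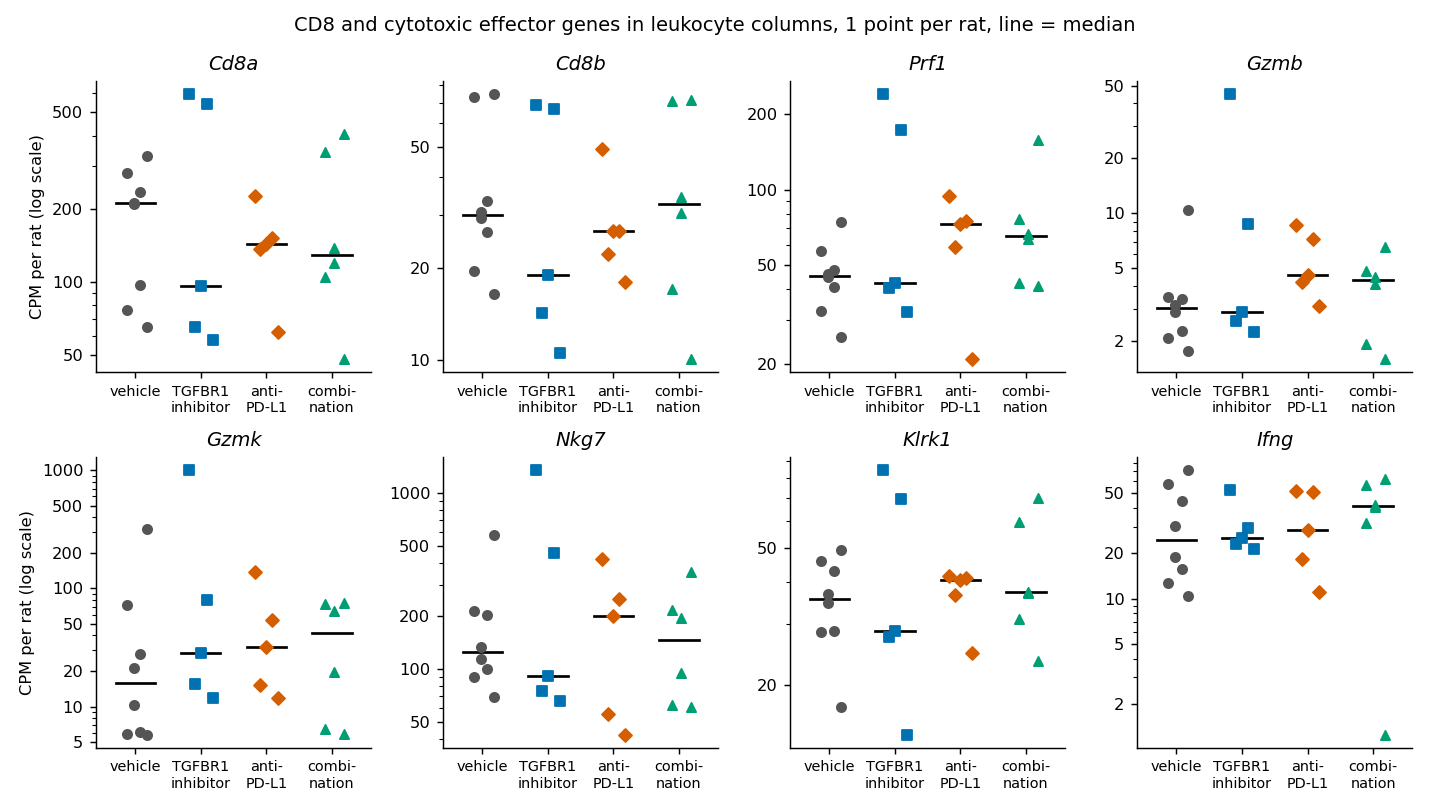
Level of each gene in the leukocyte columns of each rat (CPM scaled by TMM, log axis) by treatment arm, with 1 point per rat and a line at the arm's median. In every panel the arms overlap, and 1 or 2 rats on the TGFBR1 inhibitor stand above the rest in most panels, with 1006 CPM of Gzmk in the highest.

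Cd8a, the chain present in all CD8 molecules, measured from 65.1 to 331 CPM over the 8 vehicle rats, with a median of 211. In the rats on the inhibitor it was 542 in P16, 593 in P17, 64.9 in P19, 57.5 in P21 and 96.4 in P22. In the rats on anti-PD-L1 it was 143 in P24, 137 in P26, 62.2 in P27, 151 in P28 and 226 in P29. The inhibitor arm was thus split, with 2 rats above every other rat of the study's arms. P22 lay in the lower part of the vehicle range, and P19 and P21 lay below it. All 5 anti-PD-L1 rats were near or below the vehicle median. The combination gave 48.1 to 406 CPM with a median of 128. The log2 fold changes against vehicle were 0.52 ± 0.57 (SE) for the inhibitor, -0.39 ± 0.59 for anti-PD-L1 and 0.03 ± 0.55 for the combination, and the lowest of the 3 adjusted p (edgeR) was 0.683. Without P17 the inhibitor value was 0.00.

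Cd8b, the second chain of the heterodimer carried by conventional CD8 T cells, measured 16.4 to 74.8 CPM in vehicle rats, with a median of 29.9. On the inhibitor it was 66.8 in P16, 68.95 in P17, 14.3 in P19, 10.5 in P21 and 19.02 in P22. On anti-PD-L1 it was 17.99 in P24, 26.6 in P26, 22.3 in P27, 26.5 in P28 and 49.4 in P29. P16 and P17 again lay at the top of their arm, but here 2 vehicle rats were higher still. The combination spanned 10.1 to 71.4 CPM around a median of 32.4. Its 3 log2 fold changes were -0.08 ± 0.50 (inhibitor), -0.41 ± 0.51 (anti-PD-L1) and 0.05 ± 0.48 (combination), all within 1 SE of 0.

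Prf1 encodes perforin. Its vehicle values ran from 25.6 to 74.2 CPM around a median of 45.2. With the inhibitor P16 had 174 CPM and P17 had 241, while P19, P21 and P22 had 42.3, 32.2 and 40.2. The first 2 of these rats exceeded every vehicle rat and the other 3 lay within the vehicle range. With anti-PD-L1 the values were 72.8 in P24, 75.01 in P26, 20.96 in P27, 58.97 in P28 and 94.2 in P29, and with the combination they were 41.05 to 159 with a median of 65. Medians thus stood higher in both antibody arms than in vehicle, with P27 the lowest of all 24 rats. The log2 fold change of the inhibitor arm was 1.20 ± 0.44 (95% confidence interval 0.30 to 2.10, unadjusted p = 0.011, adjusted p = 0.181 in edgeR). That of the combination was 0.70 ± 0.42 (adjusted p = 0.415) and that of anti-PD-L1 0.49 ± 0.44 (adjusted p = 0.662).

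Gzmb encodes granzyme B, the protease best known for triggering apoptosis of target cells. It was low throughout, at 1.76 to 10.4 CPM in vehicle rats with a median of 3.04, and the fewest counts behind a rat's value were 22. The rats on the inhibitor had 8.80 in P16, 44.9 in P17, 2.25 in P19, 2.58 in P21 and 2.88 in P22. Only P17 lay above all vehicle rats. Rats on anti-PD-L1 had 7.24 in P24, 4.58 in P26, 4.24 in P27, 8.64 in P28 and 3.11 in P29, all above the vehicle median and below the highest vehicle rat. The combination gave 1.60 to 6.58 with a median of 4.31. The log2 fold change was 1.74 ± 0.60 for the inhibitor (95% confidence interval 0.50 to 2.97, unadjusted p = 0.00782, adjusted p = 0.172 in edgeR), 0.60 ± 0.60 for anti-PD-L1 and 0.09 ± 0.58 for the combination.

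Gzmk, or granzyme K, is a granzyme typical of memory-like CD8 T cells. Its vehicle median of 15.8 CPM stood between a lowest value of 5.804 and 320 in P7. With the inhibitor it was 79.4 in P16, 1006 in P17, 11.8 in P19, 28.2 in P21 and 15.5 in P22. With anti-PD-L1 it was 54.3 in P24, 32.1 in P26, 11.9 in P27, 138 in P28 and 15.3 in P29. One rat in each of these 3 arms thus held most of the arm's Gzmk. In the combination arm no rat stood apart in this way, with 5.86 to 75.6 CPM around a median of 42.02. The SE was correspondingly wide: the log2 fold change was 1.96 ± 1.10 for the inhibitor (adjusted p = 0.365), -0.22 ± 1.12 for anti-PD-L1 and -0.51 ± 1.07 for the combination. The medians of all 3 treated arms were nevertheless higher than the vehicle median, and without P7 the 3 fold changes were 3.37 (adjusted p = 0.0695), 1.20 and 0.89.

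Nkg7 encodes a membrane protein of cytotoxic granules that aids their release. It ran from 69.2 to 577 CPM in vehicle rats (median 124), and from 60.6 to 353 with the combination (median 145). On the inhibitor P16 had 454, P17 had 1354, P19 had 74.2, P21 had 90.2 and P22 had 65.2. On anti-PD-L1 P24 had 248, P26 had 199, P27 had 42.2, P28 had 422 and P29 had 55.4. Of the rats on a single agent, P17 alone lay above the vehicle range, and P22, P27 and P29 lay below it. The log2 fold changes were 1.12 ± 0.71 (inhibitor, adjusted p = 0.433), 0.05 ± 0.72 (anti-PD-L1) and -0.20 ± 0.68 (combination).

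Klrk1 encodes NKG2D, the activating receptor for stress-induced ligands on NK and CD8 T cells. It varied least, with 17.3 to 49.6 CPM in vehicle rats (median 35.7) and 23.5 to 70.2 with the combination (median 37.2). P16 and P17 had 69.5 and 84.5 on the inhibitor, against 27.5 in P19, 14.4 in P21 and 28.7 in P22. On anti-PD-L1 the 5 values were 41.6, 36.4, 24.8, 41.1 and 40.4 from P24 to P29, so that 4 of 5 rats lay within a narrow band inside the vehicle range. The log2 fold changes of 0.34 ± 0.33 (inhibitor), 0.05 ± 0.34 (anti-PD-L1) and 0.28 ± 0.32 (combination) came with the shortest confidence intervals of the 8 genes.

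Ifng encodes interferon-gamma, which raises antigen presentation in nearby cells. Its vehicle range was 10.4 to 71.5 CPM with a median of 24.5. It was 52.4 in P16, 23.01 in P17, 21.3 in P19, 29.6 in P21 and 25.2 in P22 on the inhibitor, and 11.1 in P24, 28.7 in P26, 51.96 in P27, 50.8 in P28 and 18.2 in P29 on anti-PD-L1. P17, the highest rat for 6 of the other 7 genes, was thus near the middle for Ifng, and P27, the lowest rat for Prf1 and Nkg7, was near the top. Combination rats had 1.25 (P33, 12 counts) to 62.7 with a median of 41.1, the highest median of the 4 arms. The log2 fold changes were -0.11 ± 0.57 (inhibitor), -0.03 ± 0.57 (anti-PD-L1) and 0.26 ± 0.53 (combination).

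**Figure D2:**
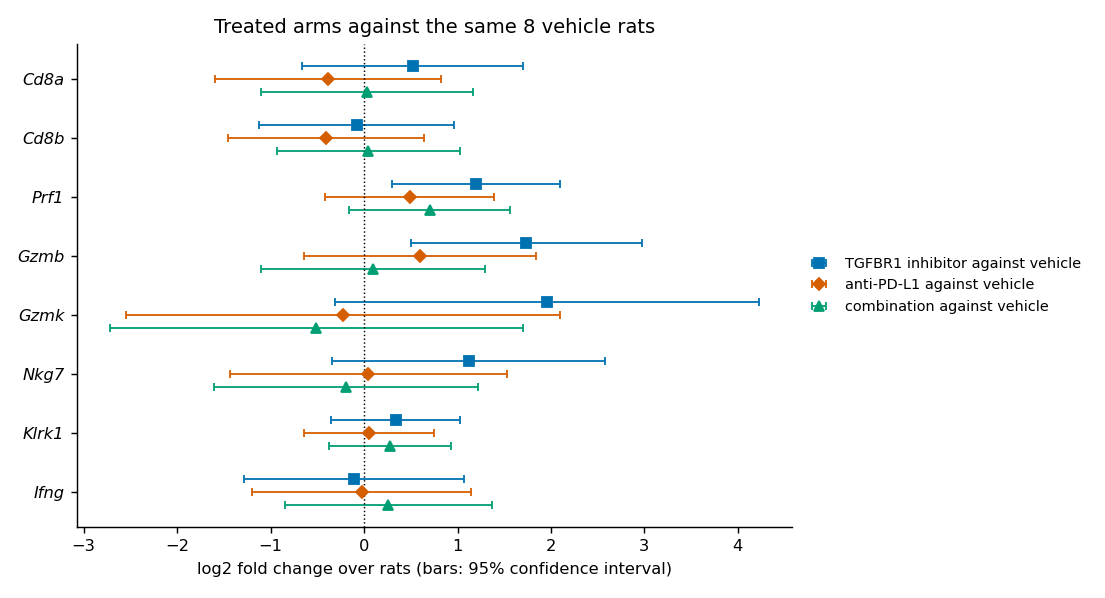
Log2 fold change of each gene over rats (horizontal axis, with bars for the 95% confidence interval of the edgeR fit) in each treated arm against the same 8 vehicle rats. The intervals of Prf1 (0.30 to 2.10) and Gzmb (0.50 to 2.97) with the TGFBR1 inhibitor lie above 0 before adjustment over all genes, and every other interval includes 0.

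Across the members the median log2 fold change was 0.82 with the inhibitor, against 0.00 over all genes, with 6 of 8 members above 0 where 50.3% of all genes were. It was 0.01 with anti-PD-L1 (all genes -0.02; 4 of 8 above 0, 48.1% of all genes) and 0.07 with the combination (all genes 0.01; 6 of 8 above 0, 50.6%). The inhibitor values turned on single rats. Without P17, Gzmb was 0.15, Prf1 0.64, Gzmk -0.81, Nkg7 -0.14 and Klrk1 -0.03. Without vehicle rat P7, Gzmb was 2.15 (adjusted p = 0.0511) and Prf1 1.30 (adjusted p = 0.0905), and neither passed. Within the deposited batches the inhibitor values were 2.37 in batch 3, which holds P17, and 0.05 in batch 2 for Gzmb, 1.16 and 0.64 for Prf1, and 3.72 and -1.48 for Gzmk, with no adjusted p (edgeR) under 0.199.

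Genes of cell makeup did not pass either. With the inhibitor Cd3e had a log2 fold change of 0.66 ± 0.26 (adjusted p = 0.201 in edgeR) and Cd68 one of -1.81 ± 0.71 (adjusted p = 0.207). The 8 macrophage markers, all in the table, summed to 217 to 8742 CPM in vehicle rats, 197 to 1199 with the inhibitor, 43.5 to 1135 with anti-PD-L1 and 219 to 1867 with the combination, and Cd163 was at 0 in at least 1 rat of each arm but the combination. The 3 NK markers summed to 18.5 to 95.1, 22.02 to 192, 13.6 to 97.1 and 15.7 to 113 CPM in the same order, and of them only Ncr1 reached 0, in 1 combination rat or more. With the mean of the 3 CD3 genes as a covariate, the inhibitor values were 0.93 for Gzmb, 0.76 for Prf1, 0.08 for Gzmk and -0.11 for Cd8a (lowest adjusted p of these 0.466). Dendritic cell markers were above 0 in 4, 4 and 2 of 5 cases with the inhibitor, anti-PD-L1 and the combination. Mast cell markers were above 0 in 1, 3 and 1 of 4 cases in the same order. Neutrophil and macrophage markers lay to 1 side in all 3 treated arms without passing. All 5 neutrophil markers had log2 fold changes below 0 (medians -3.14 with the inhibitor, -1.64 with anti-PD-L1 and -3.04 with the combination), as had all 8 macrophage markers (medians -2.76, -2.34 and -2.49). Summed neutrophil markers were 61.9 to 2697 CPM in vehicle rats, 5.11 to 358 with the inhibitor, 2.01 to 829.5 with anti-PD-L1 and 33.3 to 125 with the combination, with Mpo or Camp at 0 in at least 1 rat of each arm. The part of myeloid and NK cells in the members' values was not tested.

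The second question is whether the combination differed from either agent alone. Against anti-PD-L1, 0 of 8 members passed (0% of all genes), and 0 of 8 had an unadjusted p under 0.05 (0.939% of all genes). The 8 log2 fold changes ran from -0.50 (Gzmb) to 0.45 (Cd8b), and no gene was more than 1 SE from 0. Against the TGFBR1 inhibitor, 0 of 8 members passed (0% of all genes) and 1 of 8, Gzmb, had an unadjusted p under 0.05 (1.37% of all genes). Gzmb had a log2 fold change of -1.64 ± 0.65 (95% confidence interval -2.99 to -0.30, unadjusted p = 0.0187, adjusted p = 0.9995 in edgeR), and -0.06 without P17. The granule genes Gzmk and Nkg7 gave -2.47 ± 1.22 and -1.32 ± 0.77, and Gzmk was 0.29 without P17. Arms overlapped for all 8 genes in both comparisons, where 0.0419% and 0.0922% of all genes did not overlap.

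Genes that work with the members were described in 9 lists of the CD8 and NK program. None of their tested genes passed in any of the 5 comparisons (edgeR). With the inhibitor, both other granzymes that passed the filter on low counts had positive fold changes (median 1.71), as had 12 of 15 NK receptors and adaptors (median 0.74), 14 of 16 CD3 complex and T cell signalling genes (median 0.39) and 7 of 10 granule release and death ligand genes (median 0.21). Of the other granzymes, Gzma had 2.22 ± 0.97 (adjusted p = 0.256) and Gzmm 1.21 ± 0.72 (adjusted p = 0.395), while Gzmc, Gzmf and Gzmn did not pass the filter. On the inhibitor the 3 NK markers summed to 192 CPM in P16 and 169 in P17. They summed to 23.95 in P19, 32.4 in P21 and 22.02 in P22. The median of these sums was 32.4 CPM with the inhibitor, against 42.7 in vehicle. How far P16 and P17 carried the inhibitor values of the 9 lists was not tested. With the combination, all 10 tested granule release and death ligand genes were above 0 (median 0.37), as were 7 of 7 genes of CD4 and regulatory T cells (median 0.54), but 7 of 15 NK genes (median -0.0048). With anti-PD-L1 the counts above 0 were 7 of 7 for CD4 and regulatory T cells (median 0.56), 8 of 11 for transcription factors of CD8 T cells (median 0.35) and 6 of 10 for granule release (median 0.05).

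The regulators of the members gave small values as well. Transcription factors of effector and memory CD8 T cells were above 0 in 7 of 11 cases with the inhibitor (median 0.37) and 6 of 11 with the combination (median 0.28). Inducers and targets of interferon-gamma were above 0 in 6, 7 and 5 of 11 cases with the inhibitor, anti-PD-L1 and the combination (medians 0.12, 0.07 and -0.01). Chemokine, homing and residency genes were above 0 in 9, 7 and 10 of 13 cases (medians 0.13, 0.01 and 0.28), and checkpoints of exhausted T cells in 5 of 6 cases each time (medians 0.49, 0.44 and 0.53). The smallest p in these lists belonged to the checkpoint Lag3 with the inhibitor, named after its value was seen, at 1.34 ± 0.36 (unadjusted p = 0.00103, adjusted p = 0.136 in edgeR).

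The spread of the members between rats was wide. Over the 24 rats the highest value exceeded the lowest 173-fold for Gzmk, 57.1-fold for Ifng, 32.1-fold for Nkg7 and 28.1-fold for Gzmb. The span was 12.3-fold for Cd8a, 11.5-fold for Prf1, 7.43-fold for Cd8b and 5.89-fold for Klrk1. Gzmk had a coefficient of variation of 235%, which 0.486% of the tested genes exceeded, and Gzmb one of 146%, exceeded by 3.11%. Klrk1, at 42.9%, was exceeded by 47.2% of genes and so lay near the middle of all genes. P17 was the highest rat for Cd8a, Gzmb, Gzmk, Prf1, Nkg7 and Klrk1, P7 for Ifng and P39 for Cd8b.

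In P17 the CD8 genes stood high against CD4 as well, with 837 Cd8a counts per 100 Cd4 counts, where the median of the 24 rats was 59.8. P17 had the lowest Cd4 level of those rats, at 70.8 CPM, close to vehicle rat P4 at 72.3. By column total P4 was the lower of these 2, at 68.4 CPM against 68.7. Per 100 Cd3e counts P17 had 40.9 Cd8a counts, below P16 at 45.9 and vehicle rat P6 at 42.2, with a median of 17.5 over the arms. Cd8b counts per 100 Cd8a counts ran from 8.84 in P7 to 35.8 in P27, with a median of 19.97. The 2 CD8 chains therefore did not keep 1 ratio, and the arm medians of that ratio were 22.7 in vehicle, 18.2 with the inhibitor, 19.5 with anti-PD-L1 and 20.8 with the combination.

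Tumours of 1 rat differed as well. In the 10 rats with more than 1 leukocyte column the median ratio of the highest to the lowest tumour of a rat was 2.69 for Cd8a, 2.11 for Prf1, 1.81 for Nkg7, 1.75 for Ifng, 1.62 for Cd8b and 1.61 for Klrk1. For Gzmb and Gzmk it was 1.91 and 1.60 over 9 rats, without untreated rat C10, whose tumour 2 had 0 counts of both genes while its tumour 4 had 22.3 CPM of Gzmb and 3.31 CPM of Gzmk (by column total). Vehicle rat P5, whose tumour 3 is the column of little T cell RNA named above, had ratios of 585 for Ifng, 174 for Gzmk, 47.9 for Nkg7, 40.1 for Gzmb, 24.96 for Prf1 and 10.4 for Cd8a. That column had 1 count of Ifng and 2 of Gzmb, so that the first and the fourth of these ratios rest on almost no reads. Klrk1 did not follow, with 59.5 CPM (by column total) in that same column and a ratio in rats of at most 3.75.

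Untreated tumours of the other cohort were all in batch 1 and were not compared with the arms. Over the 7 untreated rats, by column total, Cd8a measured 22.2 to 208 CPM with a median of 78.3, Prf1 25.4 to 183 with a median of 33.04 and Gzmk 1.23 to 165 with a median of 14.7. Nkg7 spanned 15.9 to 772 (median 184), Klrk1 14.2 to 87.9 (median 50.0), Ifng 5.58 to 108.9 (median 34.8), Cd8b 3.76 to 20.998 (median 16.9) and Gzmb 1.14 to 13.7 (median 7.24). Rats C3, C7 and C17 held the 3 highest values of Cd8a, of Gzmk and of Prf1. In the 62 columns below the Ptprc threshold other than C5 tumour 1, the 8 genes had medians of 0 to 0.769 CPM and a highest value of 30.4 CPM (Nkg7). Their highest values of Gzmb and Gzmk were 3.15 and 18.7 CPM, which 18 and 19 of the 44 leukocyte columns did not exceed. For each other gene 1 to 4 leukocyte columns did not exceed the highest of the 62.

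The third question is which members varied together. Cd8a rose and fell over the 24 rats with Cd8b (r = 0.87, rho = 0.85, permutation adjusted p = 0.0133), with Prf1 (r = 0.82, rho = 0.81, adjusted p = 0.0133) and with Klrk1 (r = 0.73, rho = 0.70, adjusted p = 0.0455). These were 3 of the 7 other members, where 0.159% of 11931 genes had a positive correlation with Cd8a that passed. Nkg7 (r = 0.68, adjusted p = 0.0614), Gzmk (r = 0.65, adjusted p = 0.0838), Gzmb (r = 0.52, adjusted p = 0.198) and Ifng (r = 0.31, adjusted p = 0.585) did not pass. The permutations were 100000, and the smallest p they can give is 1e-05, reached by Cd8b and Prf1. Cd8b had the highest correlation with Cd8a of all genes tested, and Prf1 the third.

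**Figure D3:**
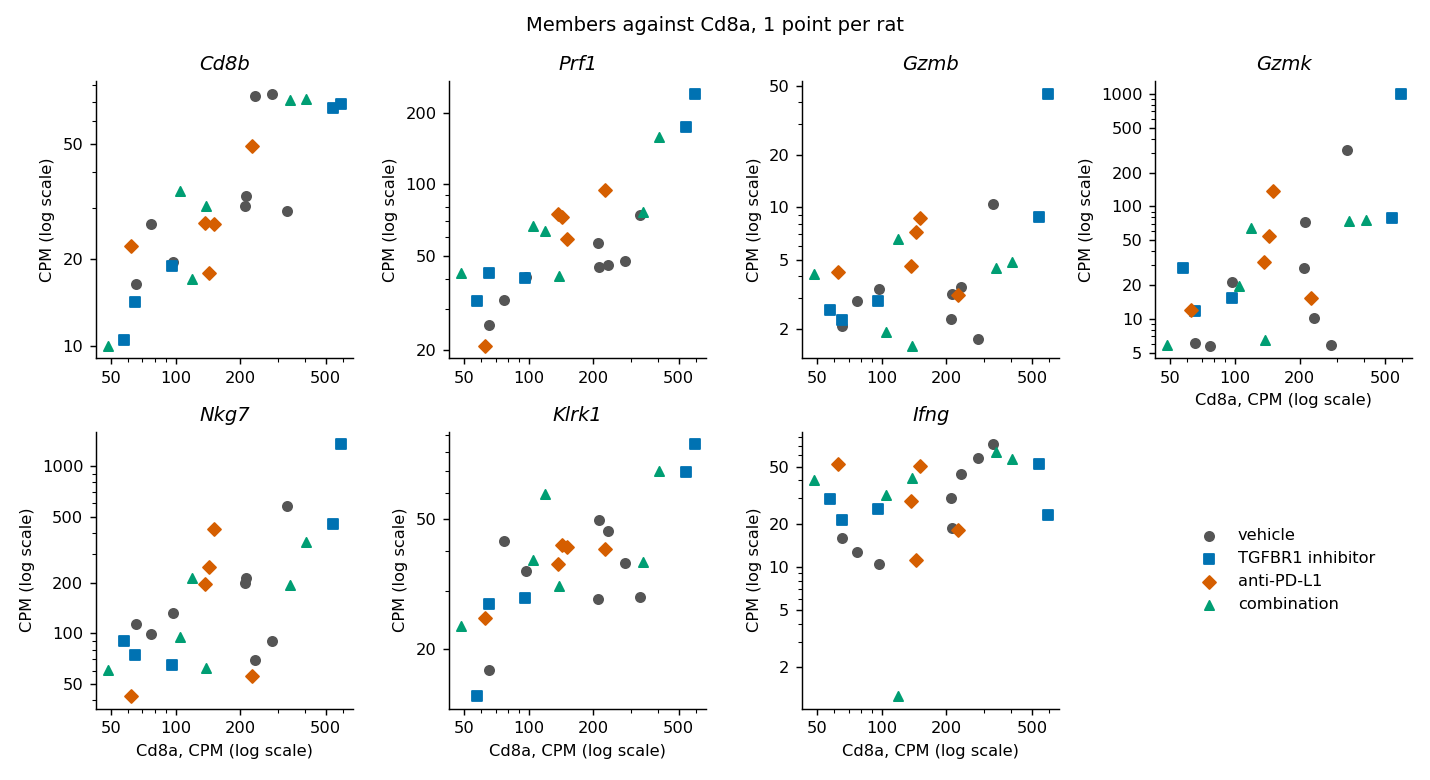
Each of the other 7 genes against Cd8a over the 24 rats (CPM on log axes, 1 point per rat, colour and shape for the arm). Cd8b, Prf1 and Klrk1 climb with Cd8a (r = 0.87, 0.82 and 0.73), Gzmk and Nkg7 spread more widely (r = 0.65 and 0.68), and Ifng shows a low value in 1 combination rat with little relation to Cd8a otherwise (r = 0.31).

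With Prf1 as the reference, Cd8a (r = 0.82, permutation adjusted p = 0.00994), Klrk1 (r = 0.77, adjusted p = 0.0140), Nkg7 (r = 0.74, adjusted p = 0.0149) and Gzmk (r = 0.72, adjusted p = 0.0243) passed. These were 4 of 7 members, where 0.536% of genes had a positive correlation with Prf1 that passed. Gzmb (r = 0.67, adjusted p = 0.0514) and Cd8b (r = 0.61, adjusted p = 0.0639) lay near the threshold without passing, and Ifng had r = 0.11. Without P16 and P17, the 2 rats farthest from the median of either reference, Cd8a had r = 0.85 with Cd8b, 0.73 with Prf1 and 0.61 with Klrk1, and Prf1 had r of 0.58 with Nkg7 and with Gzmk. No gene passed there (0% of all genes), with the lowest adjusted p at 0.119, which is the lowest that 100000 permutations can give when 1 gene alone reaches their smallest p. As deviations from the arm means, permuted within arms, Cd8b (r = 0.88) and Prf1 (r = 0.89) passed with Cd8a at an adjusted p of 0.00702 each (0.662% of all genes), and Klrk1 did not (r = 0.75, adjusted p = 0.0773). With Prf1 as the reference in that setting, Cd8a alone of the 7 members passed (adjusted p = 0.0298, 0.235% of all genes), and Klrk1, Nkg7 and Gzmk did not (adjusted p = 0.0618, 0.0659 and 0.0507). By Spearman these 3 did not pass with Prf1 either (adjusted p = 0.0975, 0.126 and 0.0954). Cd3e, a measure of T cell RNA, had r = 0.53 with Cd8a and 0.59 with Prf1 (adjusted p = 0.175 and 0.0910), and Ncr1, an NK receptor, 0.30 and 0.25.

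Among 7780 other genes of at least 10 CPM with settled symbols, those most like Cd8a over the 24 rats were Ctsw (r = 0.82), Klrb1c (0.80), Ppm1g (0.79), Gzmm (0.76) and Sephs2 (0.75). Those most like Prf1 were Klrb1c (r = 0.82), Gzmm (0.79), Smarcd1 (0.78), Ppm1g (0.78) and Ccl5 (0.77). Ctsw encodes a lysosomal protease of cytotoxic cells, Klrb1c an NK receptor, Gzmm another granzyme and Ccl5 a T cell chemokine. These are descriptions, and each gene shares its libraries with the reference.

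The deposited sample table gives a CD8 fraction per tumour (column CD8Frac) whose denominator is not stated, for 20 of the 24 rats. P13, P17, P23 and P34 had no value, so P17, the highest rat for Cd8a at 593 CPM, is not in these correlations. It ran from 0.0130 to 0.380 with a median of 0.0455, and its highest values were 0.380 in anti-PD-L1 rat P28, 0.277 in vehicle rat P7 and 0.152 in anti-PD-L1 rat P27. No member followed it past the threshold (0 of 8; 0% of all genes), and 3 of 8 had an unadjusted permutation p under 0.05 (10.5% of all genes). Cd8a itself had r = 0.24 (rho = 0.34, adjusted p = 0.703) and Cd8b r = 0.14 (rho = 0.42, adjusted p = 0.850). The granule genes were higher, with r = 0.60 for Gzmk (rho = 0.31, p = 0.00656, adjusted p = 0.386), 0.56 for Gzmb (rho = 0.37, p = 0.00736, adjusted p = 0.386) and 0.50 for Nkg7 (rho = 0.24, p = 0.0223, adjusted p = 0.434). Ifng had r = 0.41 and rho = 0.53 (p for rho = 0.0185, adjusted p = 1), and Prf1 and Klrk1 had r = 0.06 each.

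**Figure D4:**
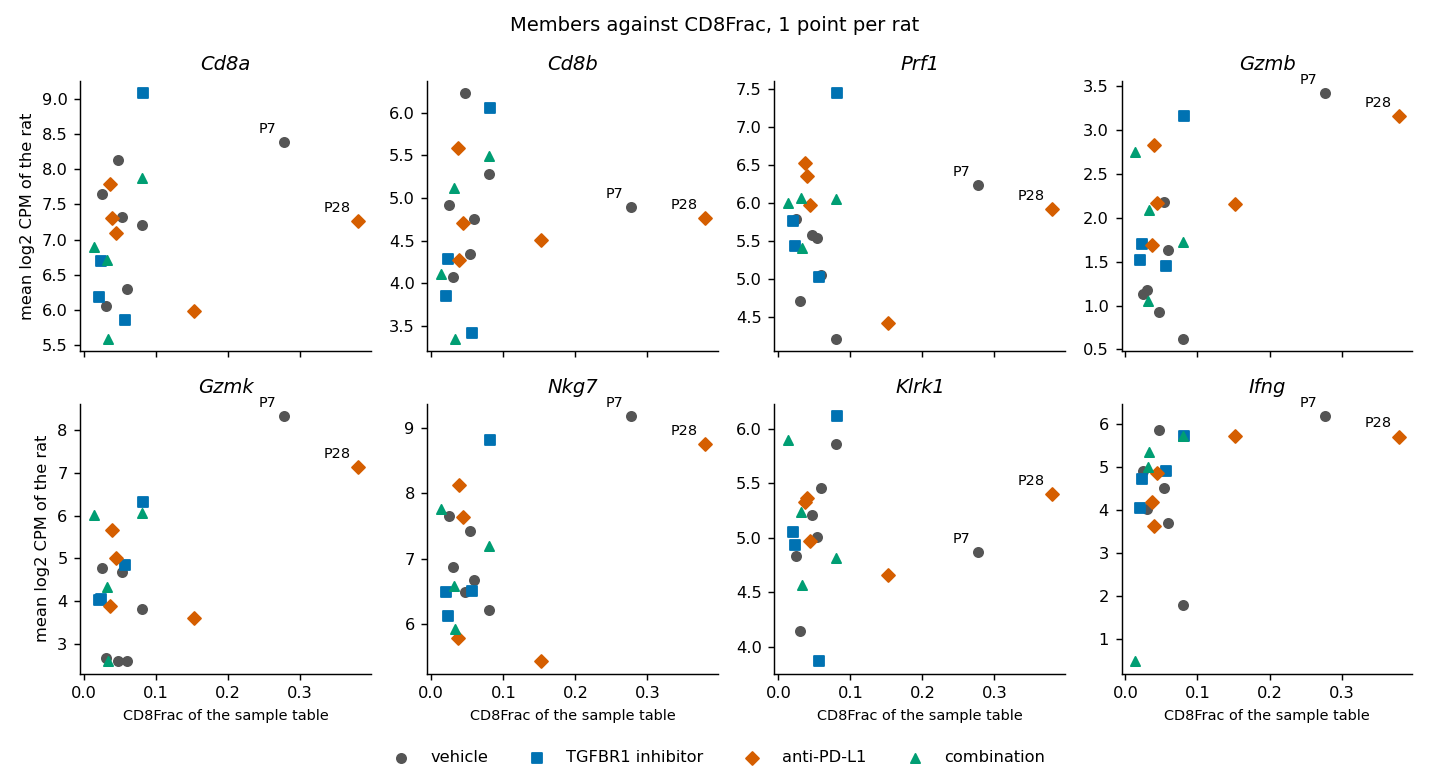
Mean log2 CPM of each gene per rat against the CD8 fraction of the deposited sample table (20 rats, 1 point per rat, colour and shape for the arm). Rats P28 (0.380) and P7 (0.277) stand to the right of the others in every panel, and high in the panels of Gzmk, Gzmb and Nkg7.

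For the granule genes r rests on those 2 rats. Without P28 and P7 it was 0.02 for Gzmk, 0.11 for Gzmb, -0.20 for Nkg7 and -0.30 for Prf1, while Ifng had 0.33 and Cd8b 0.27. Both rats are in batch 2, and r of that batch without them was not computed. In batch 2 (11 rats) r was 0.79 for Gzmk, 0.69 for Gzmb, 0.65 for Nkg7 and 0.66 for Ifng. In batch 3 (14 rats) it was -0.35, -0.10, -0.45 and 0.27 in the same order. None of these passed (lowest adjusted p 0.346), and the difference between batches was not tested. In batch 3 Cd8b had the highest rho, 0.55 (permutation p = 0.0457, adjusted p = 0.355, where 0.067% of all genes passed by rho). Within the 7 vehicle rats Gzmk had r = 0.86 (exact permutation p = 0.0792) and Gzmb 0.82 (exact permutation p = 0.0800), with rho of 0.21 and 0.32. With columns of at least 600 CPM of Ptprc in the same 7 rats, Gzmb had r = 0.83 (rho = 0.86, exact permutation p = 0.00337), Gzmk 0.76 (rho = 0.46, exact permutation p = 0.0212) and Nkg7 0.73 (rho = 0.46, exact permutation p = 0.0224). The adjusted p of each of these 3 was 0.392, against 0.485 for Gzmk and Gzmb before.

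The growth rate of the same table (column GrowthRate, unit not stated) was given for all 24 rats and ran from 0.0246 in P7 to 30 in P16, with a median of 3.73 and the second highest value, 12.8, in P5. Pearson's r passed for 0 of 8 members (0.235% of all genes) and Spearman's rho for 0 of 8 members (11.3% of all genes). Gzmk had r = -0.17 and rho = -0.47 (permutation p for rho = 0.0220, adjusted p = 0.107), Prf1 r = 0.07 and rho = -0.37, Gzmb r = -0.08 and rho = -0.37, Ifng r = -0.05 and rho = -0.22 and Nkg7 r = 0.03 and rho = -0.20. The CD8 chains had r of 0.20 and 0.22 and rho of -0.08 and 0.08 for Cd8a and Cd8b, and Klrk1 had r = 0.24 and rho = 0.06. The rank correlation of the granule genes was thus negative where r was near 0.

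**Figure D5:**
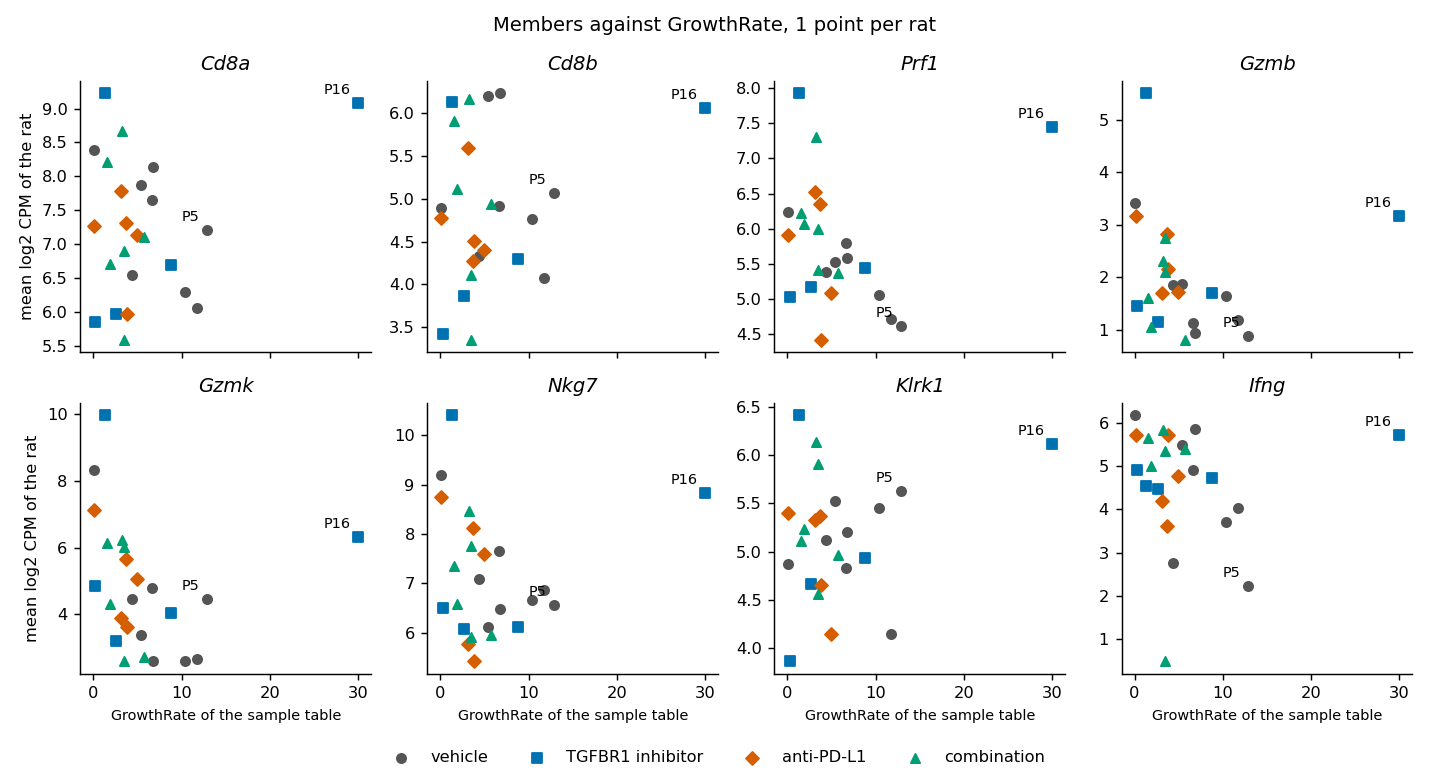
Mean log2 CPM of each gene per rat against the growth rate of the deposited sample table (24 rats, 1 point per rat, unit not stated). P16, with a growth rate of 30, lies far to the right and high in Cd8a, Prf1 and Nkg7, while the other rats of Gzmk decline from left to right.

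P16 and P5 were the 2 rats farthest from the median growth rate, and most of the shift in r came with P16. Without both, Gzmk had r = -0.63 and passed (permutation adjusted p = 0.0250), so that 1 of 8 members passed where 14.8% of all genes did. Prf1 had r = -0.45 (adjusted p = 0.1251), Gzmb -0.46 (adjusted p = 0.1245), Nkg7 -0.38 and Cd8a -0.27. Without P16 alone, Gzmk had r = -0.56 (adjusted p = 0.0432), Prf1 -0.52 and Nkg7 -0.38, and 14.9% of all genes passed. These permutations crossed the arms, and growth differed by arm. Its medians were 6.71 in vehicle, 2.62 with the inhibitor, 3.67 with anti-PD-L1 and 3.38 with the combination. As deviations from the arm means over all 24 rats, permuted within arms, 0 genes passed. The leukocyte gene Ptprc moved with growth as well (rho = -0.75, adjusted p = 0.0102), and the macrophage gene Cd68 moved the other way (rho = 0.65, adjusted p = 0.0191), and their part in the members' values was not tested. With the mean of the CD3 genes subtracted, over all 24 rats, Gzmk had r = -0.14 and Prf1 0.13.

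Arms of at least 6 rats were also taken alone. In the 8 vehicle rats Prf1 had r = -0.93 (rho = -0.79, exact permutation p = 0.00161, adjusted p = 0.520), Gzmb -0.80 (rho = -0.79, exact permutation p = 0.0138, adjusted p = 0.520), Gzmk -0.69 and Cd8a -0.63, against 0.05 for Klrk1. Of all genes 9.45% had an unadjusted p under 0.05 there and 0% passed. With columns of at least 600 CPM of Ptprc, Prf1 had r = -0.74 (exact permutation p = 0.0372), Ifng -0.74 and Gzmb -0.70. In the 6 combination rats Prf1 had r = -0.42 and rho = -0.81 (exact permutation p for rho = 0.0722). By batch, Prf1 had r = -0.57 and rho = -0.66 in batch 3 (16 rats, permutation p for rho = 0.00606) and r = 0.38 and rho = -0.14 in batch 2 (14 rats), and no member passed in either, by r (0% of all genes) or by rho (0% in batch 3 and 2.63% in batch 2). Some rats have tumours in both batches.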

How the data were processed

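RNA-seq of sorted fractions was deposited as 1 table of whole-number counts per gene symbol, and the submitters' processing notes name STAR, FastQC and the rat build rn6, without versions. Neither counting tool, annotation nor strand setting was given in the sources used here. Reads of similar granzyme copies (Gzmb among them) and of overlapping genes therefore cannot be told apart. The labels' protocols mention no molecular identifiers. A deposited sample table gave each tumour's CD8 fraction (0 to 1), growth rate and batch, joined by rat and tumour. The growth rate was used as deposited, as a score, since its unit is not stated. Treatment came from the rat's label. Of the count columns 1, headed NA, was not used, and no 2 columns used were identical.

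Counts of a rat's leukocyte columns were summed, since the rat was treated. They were tested with edgeR 4.0.16 (R 4.3.3; quasi-likelihood F test, robust, TMM, filterByExpr, all 4 arms in 1 fit, 20 residual degrees of freedom) with Benjamini-Hochberg adjustment over 11932 genes at 0.05. SE and intervals were derived from F. CPM per rat are scaled by TMM unless said to be by column total. On simulated data 62 of 98 genes changed 4-fold (63.3%) and 75 of 100 changed 8-fold (75%) were recovered in the inhibitor comparison (11705 genes). Those genes were drawn at random from all tested, so the shares do not give the recovery of the members. Only 0.486% of tested genes had a larger coefficient of variation than Gzmk, and 3.11% a larger one than Gzmb. Correlations are over rats, of mean log2 CPM (prior count 2), two-sided with 100000 permutations (exact under 10 rats), adjusted over all genes, 16 member relations with the 2 tumour measures among them. DESeq2 1.42.0, limma voom (3.58.1), RLE, other filters, Ptprc thresholds, batch, CD3 and leave-one-out settings were tried. Named genes are the members, 4 makeup genes, called genes of 9 lists and the 5 genes most like Cd8a and Prf1. Members, lists and motifs were chosen with earlier results of these data known. The same holds for batch 2 alone and for single-arm, within-batch rank and between-member settings, which were added after seeing the data. Sequences are RefSeq's, assembly GRCr8, which differs from the build of the counts. The labels name the rats of an arm as separate animals, and p-values measure the spread between them. The levels of 1 marker list are not reported here.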

Additional observations from a re-analysis of the deposited data

Results flagged for a closer look

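In groups of 4 to 10 rats the highest or lowest rat was compared with its neighbour by Dixon's ratio at the 95% level. Of 40 groups 9 held such a rat, each time the highest. The ratio was taken on CPM without logs and the groups share rats. The 95% level therefore does not give the number to be met by chance. In the TGFBR1 inhibitor arm, rat P17 stood above the other 4 rats for Gzmb, at 44.9 CPM, and for Gzmk, at 1006 CPM, and P16 for Ifng, at 52.4 CPM. Among vehicle rats P7 stood apart for Gzmb at 10.4 CPM, for Gzmk at 319.7 CPM and for Nkg7 at 577 CPM. Rat P29 stood apart for Cd8b on anti-PD-L1, at 49.4 CPM, and P23 for Prf1 on the combination, at 159 CPM. Untreated rat C3 stood apart for Nkg7, at 772 CPM by column total.

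A column below the Ptprc threshold, and so in no comparison, held all 8 members above the other 62 columns below it: tumour 1 of untreated rat C5, with 165 CPM of Ptprc and 1100 CPM of Cd3e. It had 153 CPM of Cd8a, 23.6 of Cd8b, 3.49 of Gzmb, 74.4 of Gzmk, 81.8 of Prf1, 376 of Nkg7, 31.9 of Klrk1 and 7.92 of Ifng. In those 62 columns the highest values were 27.7 CPM of Cd8a and 11.9 CPM of Prf1.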

How the results depend on the processing

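No member was called in any of the 5 comparisons under any setting run. Of 584 alternative member fold changes 81 had the other sign, 31 of them by more than 1 SE; those follow, and smaller sign changes of uncalled values are given by that count alone. The cause was not tested for any of them. DESeq2 called 153, 414 and 335 genes of all tested for anti-PD-L1, the inhibitor and the combination against vehicle, and limma voom 2, 0 and 276. Under voom the inhibitor values were -0.11 for Cd8a, -0.0094 for Klrk1 and 0.67 for Ifng, the combination value of Gzmk 0.67, and combination against inhibitor 0.22 for Cd8a and 0.084 for Prf1. With batch as a covariate Prf1 was -0.10 (anti-PD-L1) and Ifng -0.40 (combination against anti-PD-L1). That setting left out every rat with tumours in both batches, so that only P27 and P28 remained on anti-PD-L1. Its values therefore differ from the main ones in the rats used as well as in the covariate. In batch 3 Gzmk was 0.65 (combination) and Nkg7 0.61 (combination against anti-PD-L1). In batch 2 Cd8b was 0.43 (anti-PD-L1), Gzmk -1.48 and Nkg7 -0.55 (inhibitor), and Cd8a 0.41 and Gzmk 0.43 (combination against inhibitor). With the CD3 covariate Cd8a was -0.11 (inhibitor). In columns tied to 1 CD45 sample by name, Klrk1 was -0.16 and Ifng 0.81 (inhibitor). Gzmk was 3.39, Nkg7 1.94 and Klrk1 -0.48 (combination), and Gzmb 0.18 and Gzmk 0.37 (combination against inhibitor). In that setting 16 genes passed for the combination, and it gave no value for anti-PD-L1. It held only vehicle rats P5, P13 and P14, inhibitor rats P16 and P19, and combination rats P23, P31 and P35. The column of P5 was tumour 3, which held little T cell RNA.

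Leaving out each rat moved Gzmk from -1.04 to 1.20 (anti-PD-L1), -0.81 to 3.37 (inhibitor), -0.78 to 0.89 (combination) and -2.79 to 0.29 (combination against inhibitor). Klrk1 moved from -0.032 to 0.56 (inhibitor) and -0.28 to 0.31 (combination against inhibitor), Nkg7 from -0.14 to 1.60 (inhibitor) and Prf1 from -0.86 to 0.059 (combination against inhibitor). Between 0 and 297 of all genes passed for the inhibitor and 0 and 42 for the combination, the highest both without P7.

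Of 192 alternative correlations with the tumour measures 46 had the other sign. For the CD8 fraction, r without P28 and P7 was -0.30 for Prf1 and -0.20 for Nkg7. In batch 3 it was -0.030 for Cd8a, -0.10 for Gzmb, -0.35 for Gzmk, -0.48 for Prf1 and -0.45 for Nkg7. At 100 CPM of Ptprc it was -0.016 for Cd8a, -0.60 for Prf1 and -0.25 for Klrk1. For the growth rate, 1 member (Gzmk) passed without P5 and P16, and 0 to 1 when each rat was left out. Spearman's rho was -0.081 for Cd8a, -0.37 for Prf1 and -0.20 for Nkg7. Without P5 and P16 r was -0.27 for Cd8a, -0.060 for Cd8b, -0.45 for Prf1, -0.38 for Nkg7 and -0.16 for Klrk1. In batch 3 it was -0.25 for Cd8a, -0.17 for Cd8b, -0.57 for Prf1, -0.29 for Nkg7 and -0.17 for Klrk1, and in batch 2 it was 0.17 for Gzmb. Over single tumours it was -0.052 for Cd8a and -0.24 for Prf1. Leaving out each rat gave -0.23 to 0.29 for Cd8a, -0.023 to 0.28 for Cd8b, -0.56 to -0.10 for Gzmk, -0.52 to 0.17 for Prf1, -0.38 to 0.13 for Nkg7 and -0.046 to 0.34 for Klrk1. The genes passing with the growth rate numbered 28 in all, 1353 by Spearman, 1765 without P5 and P16, 46 over single tumours, 3 by column total, 22 at 600 CPM of Ptprc, and 0 as arm deviations, in either batch, with CD3 subtracted or at 100 CPM.

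Of 42 alternative correlations between members 17 no longer passed and 0 changed sign; by Spearman the adjusted p of Cd8b and of Prf1 with Cd8a was 0.0597, the lowest that 100000 permutations can give when 2 genes reach their smallest p. No paired analysis was possible because replicate numbers here only name rats and arms share no animal. Untreated tumours were not tested against glands, since no gland column was used here. Counts of 27 or fewer behind the lowest Gzmb and Ifng values limit those genes, and 5 to 8 rats an arm limit all.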

Other observations

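In 3 leukocyte columns, named after their values were seen, some members were high where others were near 0. All values are CPM by column total. Tumour 4 of untreated rat C10 had 46.2 CPM of Cd8a with 0.0705 of Cd8b (1 count), 22.3 of Gzmb, 91.5 of Ifng and 32.6 of Prf1, with Cd3e at 488 and Ncr1 at 0. Tumour 6 of the same rat had 1145 CPM of Cd3e with 10.1 of Cd8a, 0.828 of Cd8b, 0.0637 of Gzmb (1 count) and 40.2 of Ifng. Tumour 3 of vehicle rat P5 had 38.7 CPM of Cd8a, 27.4 of Cd8b and 59.5 of Klrk1 beside 21.7 of Cd3e, 0 of Ncr1, 3.07 of Prf1 and 0.0767 of Ifng (1 count).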
